A study of Homo sapiens with 24 samples.

Results

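The comparison set the 4 arrays of H838 cells taken 10 or 15 h after scratching against the 4 arrays of unscratched H838 cells (0 h), which are 8 of the 24 arrays of the series. H838, a line from a human lung cancer of the non-small cell type, was grown to confluence in wells below a transwell insert, a porous filter that lets medium but not cells pass. The insert held HPAEC, primary human endothelial cells, or more H838 cells as the control co-culture. The arrays were chosen by the labelled time alone: for each co-culture 2 replicates at 0 h, 1 array at 10 h and 1 at 15 h. The arrays at 24 h were not used.

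All groups shared the endothelial growth medium of the HPAEC cells, with its serum, growth factors, heparin and hydrocortisone, and in every group the RNA is that of the H838 cells in the well. No unscratched array was taken after 0 h, so the scratch and the hours spent in culture cannot be told apart. Nothing in the labels tells if the duplicates at 0 h were grown as separate cultures, and the p-values speak only of the scatter among these arrays, which may be technical. On the HPAEC array of 0 h replicate 2, the title and the co-culture entry name HPAEC while another entry names H838 as the second line. The array was used as HPAEC.

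A scratch in a confluent layer frees an edge, and cells answer within minutes by inducing immediate early genes such as EGR1, then migrate and close the gap over the following hours. Cells kept in used medium can also change with the hours in culture. A pulse of fresh serum can set their circadian clocks, and nutrient levels, sterol supply and crowding act on metabolism and division. Whether any of these acted here was not tested. The circadian clock is a loop in which BMAL1 and CLOCK switch on the PER genes and the output factors DBP and TEF, whose proteins or targets later feed back on the loop.

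Each of the 8 arrays detected 16023 to 17384 of the 47286 probes (detection p under 0.01), with median raw intensities of 111.7 to 125.2. After background correction, the log2 step and quantile normalization, 10783 genes were tested. The SD over genes of the difference between the 0 h duplicates was 0.252 beside HPAEC and 0.212 beside H838. EPCAM, an epithelial surface protein, was detected on all 8 arrays, but KRT7 and KRT19 were detected on 0 of them, CDH1 and KRT8 on 1 each and KRT18 on 7 by the brighter of its kept probes. The identity of the line was not tested further. Of 13 fibroblast and smooth muscle markers 9 were detected on all 8 arrays, among them the collagen genes COL1A1 and COL3A1, and their summed level was 26385 to 32533 at 0 h and 30997 to 41268 later. Of 22 endothelial markers 3 were detected on all 8 arrays and VWF, CDH5 and KDR on 0, with summed levels of 6445 to 6869 at 0 h and 6082 to 6794 later. Of 11 leukocyte markers with a probe 1 was detected on all 8 arrays. Their signals summed to 4782 to 5053 at 0 h and 4042 to 4568 later. All these sums add raw intensities, with background left in, over every probe of the markers. Detected on any of the 8 arrays were 13 of 21 fibroblast and smooth muscle, 7 of 32 endothelial and 7 of 24 leukocyte probes.

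At 10 and 15 h 857 of the 10783 genes differed from 0 h (limma, Benjamini-Hochberg adjusted p under 0.05, co-culture and BeadChip as terms), which is 7.95% of those tested. Of these 463 were higher (4.29%) and 394 lower (3.65%), whereas median scaling in place of quantile normalization gave 400 higher and 480 lower. Changes were mostly small: the median rise was 0.45 and the median fall -0.47 on the log2 scale, and 83 rises and 92 falls reached 1.5-fold. Both co-cultures moved the same way for all 857 genes against the 0 h array of their own co-culture and chip alone. The fit used these arrays too and passes mainly genes that move alike in both co-cultures. That result was thus largely set by how the genes were chosen. The 4 late arrays lay entirely above the 4 unscratched arrays for 893 genes (8.28%) and entirely below for 799 (7.41%). The count was 138 without HPAEC 0 h replicate 1, 259 without H838 0 h replicate 2, 201 without the HPAEC array of 10 h, 323 without that of 15 h and 379 without the H838 array of 15 h. It was 0 without H838 0 h replicate 1 or without HPAEC 0 h replicate 2 (2033 at an unadjusted p under 0.05), since the array then left alone in its combination of chip and co-culture no longer enters the estimate, so no call of this pooled comparison holds without either of them.

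Along the leading principal component, which held 40.1% of the variance, the late arrays lay between 5.87 and 14.7. The H838 arrays of 0 h lay at -4.36 and -1.84, and the HPAEC arrays of 0 h lay apart from them at -23.0 and -15.9. The difference in the late change between co-cultures passed the threshold for 0 genes (limma; 682 at an unadjusted p under 0.05). By the smallest p its leading genes were GPC1-AS1, detected on 3 of the 8 arrays (2.16 ± 0.30, log2, HPAEC minus H838, ± SE, adjusted p = 0.725), the chromatin protein gene ARID4B (1.41 ± 0.20, adjusted p = 0.725) and the RNA helicase gene DDX6 (1.47 ± 0.24, adjusted p = 0.754).

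**Figure D1:**
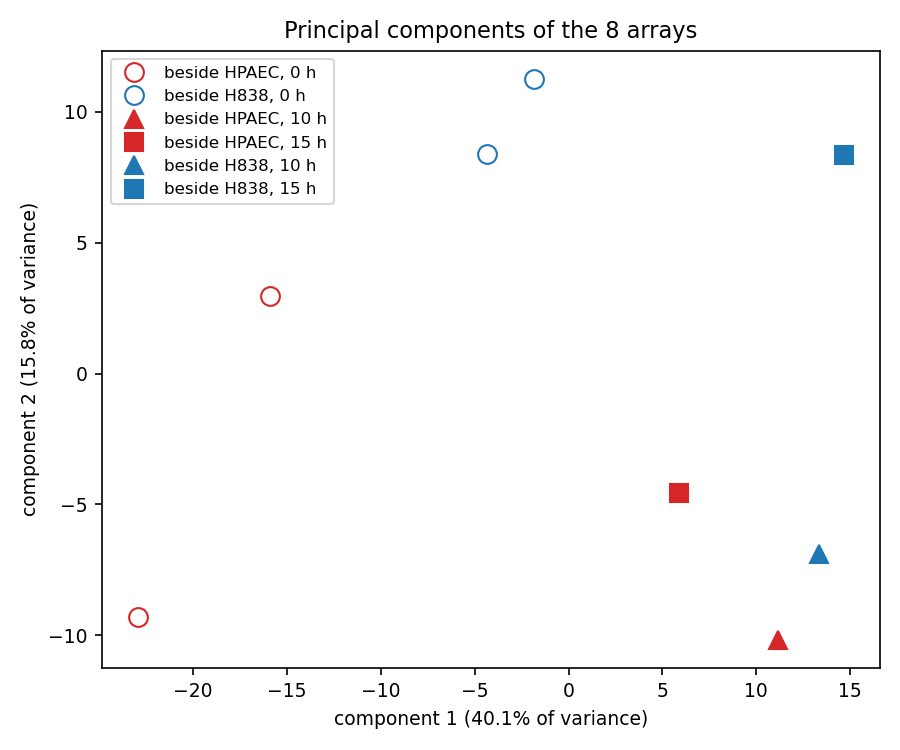
Principal components of the 8 arrays over 10783 genes, the leading component (40.1% of the variance) on the x axis and the next on the y axis, with open circles for 0 h, triangles for 10 h, squares for 15 h, red beside HPAEC and blue beside H838. All 4 late arrays lie at 5.87 or above on the x axis, and the HPAEC arrays of 0 h lie farthest from them at -23.0 and -15.9.

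Genes of the circadian clock were among the largest falls, and BMAL1 was among the largest rises. BMAL1, the activator that pairs with CLOCK, was at 5.49 and 5.78 on the HPAEC arrays and 5.43 and 5.77 on the H838 arrays of 0 h (log2 intensity), not above background on any of them. It reached 6.82 and 6.88 beside HPAEC and 6.44 and 6.75 beside H838 at 10 and 15 h, detected on all 4, so it was at least 1.70-fold higher (adjusted p = 0.00759). Such a bound sets the late mean against the lowest signal still called detected on each array.

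TEF, an output factor of the clock that binds D-box elements, stood at 7.45 and 7.47 beside HPAEC and at 6.94 and 7.23 beside H838 before the scratch. Later it was at 5.62 and 6.26 beside HPAEC and at 5.51 and 5.87 beside H838, above background on 1 of these 4 arrays. The groups did not overlap (fitted change -1.46 ± 0.15, adjusted p = 0.00711), and with 3 of 4 late arrays not above background the size of the fall is uncertain. DBP, its relative, fell by 1.14 ± 0.14 from 8.63 to 9.27 at 0 h to 7.61 to 8.13 later.

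PER2, a repressor of the loop, was at 8.29 and 8.41 beside HPAEC and 8.29 and 8.20 beside H838 at 0 h. At 10 h it was at 7.72 and 7.32 and at 15 h at 7.27 and 6.85, so that in each co-culture the later array was the lower (-1.01 ± 0.14, adjusted p = 0.0118). PER3 fell by 0.85 ± 0.14 with all 4 late arrays below those of 0 h. Of 14 clock genes tested 1 was higher and 4 lower (background 4.29% and 3.65%), with a median change of -0.20 against 0.009 over all genes. CLOCK (0.33), CRY1 (0.00), CRY2 (-0.21) and the nuclear receptor gene NR1D2 (-0.59) did not pass. Without 1 of the 6 arrays other than the pair named above, 4 or 5 members were lower and 1 higher.

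The promoter letters of these genes are printed because the clock's factors bind short elements there. In RefSeq's promoter table (GRCh38.p14) the 250 bases before the start of TEF hold an E-box (CACGTG), the element of BMAL1 and CLOCK, and those of PER3 a D-box (TTATGTAA or TTACGTAA), the element of TEF and DBP. Both are in capitals, TEF at chr22:41367235-41367294 and PER3 at chr1:7784091-7784150, both on the plus strand.
TEF: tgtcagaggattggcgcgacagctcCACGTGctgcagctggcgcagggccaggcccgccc
PER3: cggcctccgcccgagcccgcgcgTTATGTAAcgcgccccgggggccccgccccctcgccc
On either strand an E-box is in 9.15% of the 8788 promoters of tested genes found in that table, and a D-box in 0.512%. Among the 5 clock genes that passed, 1 promoter holds an E-box and 1 a D-box. A match is a description of letters and not of binding.

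Mitotic genes were lower as a group. CDC25C, the phosphatase that starts mitosis by activating CDK1, was at 9.39 and 9.56 beside HPAEC and 9.53 and 9.82 beside H838 at 0 h, and at 8.56, 8.86, 8.69 and 8.77 on the late arrays in the same order. No late array reached the unscratched range (-0.85 ± 0.11, 1.81-fold lower, adjusted p = 0.0103). CDCA3, which triggers the removal of WEE1, fell by 0.76 ± 0.10, the centrosomal kinase NEK2 by 0.69 ± 0.11, separase (ESPL1), which cleaves cohesin, by 0.68 ± 0.13, and the mitotic kinase PLK1 by 0.63 ± 0.12. The spindle genes KIF2C, KIF20A and SPAG5 fell by 0.58, 0.57 and 0.54.

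Of 66 G2/M genes tested 24 were lower and 0 higher (background 3.65% lower), and 37 had all late arrays below all unscratched ones (background 7.41%). The other 42 did not pass, among them the proliferation antigen MKI67 (-0.19), the cyclin CCNB1 (-0.16) and the kinase CDK1 (-0.10), and 63 of the 66 estimates lay below 0. On the single arrays the list's median relative to 0 h was -0.27 and -0.23 beside HPAEC and -0.37 and -0.43 beside H838 at 10 and 15 h. Without 1 of the other 6 arrays the number of members lower was between 7 and 20 and the median between -0.36 and -0.29. CCNB3, a meiotic B-type cyclin kept outside the list, fell by 0.87 ± 0.11 by its brightest probe and by 0.43 by its other kept probe.

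Many G2/M promoters carry CCAAT boxes and a CHR (cell cycle homology region, TTTGAA), to which the NF-Y and the DREAM or B-MYB complexes are known to bind. The stretches before the start of 4 of the falling genes are printed with both motifs, read on either strand, in capitals. PLK1 (chr16:23678779-23678888), ESPL1 (chr12:53268209-53268298) and KIF20A (chr5:138179002-138179111) lie on the plus strand and NEK2 (chr1:211675622-211675711) on the minus strand.
PLK1: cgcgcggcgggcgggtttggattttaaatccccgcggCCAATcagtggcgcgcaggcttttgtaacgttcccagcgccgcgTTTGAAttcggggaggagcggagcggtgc
ESPL1: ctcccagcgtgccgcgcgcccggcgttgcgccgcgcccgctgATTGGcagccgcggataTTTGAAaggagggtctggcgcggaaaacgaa
KIF20A: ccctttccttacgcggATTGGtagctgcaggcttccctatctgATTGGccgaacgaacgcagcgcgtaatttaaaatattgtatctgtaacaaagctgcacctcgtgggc
NEK2: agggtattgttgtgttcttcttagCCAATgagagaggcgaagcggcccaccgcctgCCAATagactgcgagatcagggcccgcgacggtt
PLK1 and ESPL1 show a CCAAT box followed by a CHR near the start, KIF20A and NEK2 a pair of CCAAT boxes. Over the 250 bases a CCAAT box is in 16 of 21 matched promoters of the G2/M genes that fell (76.2%). It is in 36.0% of those of all tested genes. The box is not particular to this list: it is in 5 of 5 clock genes that passed and 5 of 7 falling cholesterol genes. Rising heat shock genes have it in 4 of 6, falling ER stress genes in 5 of 10 and rising SR genes in 1 of 7. A CHR is in 10 of the 21 G2/M promoters (47.6%) against 8.42%. List members that did not pass were not examined for motifs.

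Genes of the preceding phase did not fall with them. CDC25A, the phosphatase that opens S phase, was at 7.74 to 8.08 at 0 h and 8.32 to 8.63 later (0.52 ± 0.10, adjusted p = 0.0236). The cyclin CCNE1 rose by 0.52 ± 0.13, with 10.19 and 10.02 at 10 h and 9.81 and 9.52 at 15 h against 9.30 to 9.42 before. RFC3, a clamp loader subunit, rose by 0.47 ± 0.08 by its brightest probe, while its kept probes differ in sign. The flap nuclease FEN1 (0.38), the exonuclease EXO1 (0.34) and E2F2 (0.29) also passed, and the licensing factor CDT1 fell by 0.46 ± 0.10. Of 52 G1/S genes 6 were higher and 1 lower (background 4.29% and 3.65%), with a median of 0.09. The number higher was 0 to 3 without 1 of the other 6 arrays, and it was 0 without HPAEC 0 h replicate 1, without HPAEC 10 h and without H838 0 h replicate 2.

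**Figure D2:**
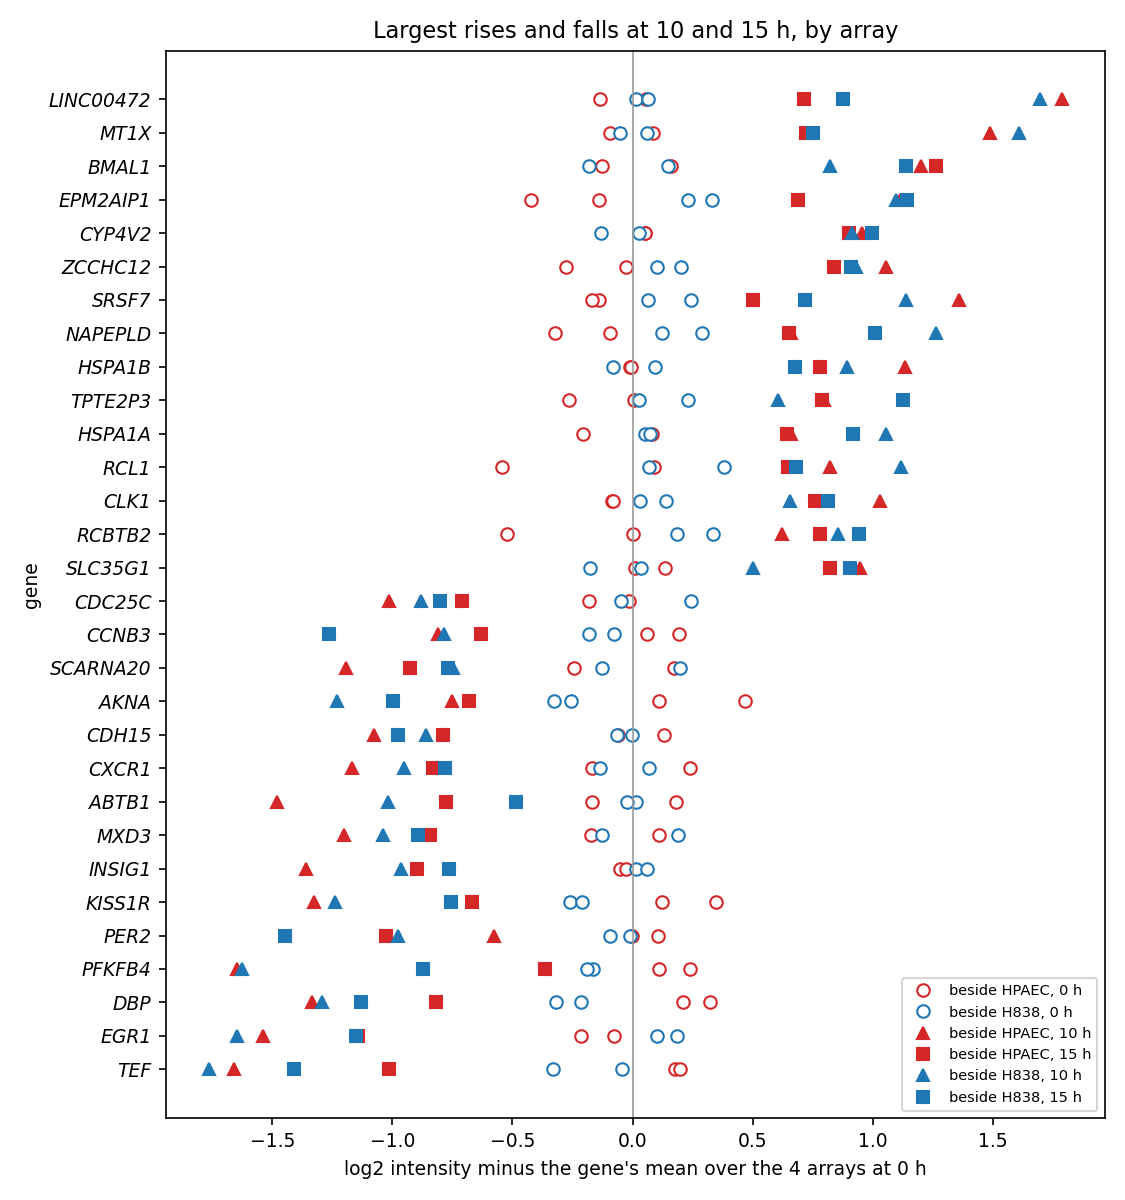
The 15 largest rises and 15 largest falls chosen by rule, with each array's log2 intensity minus the gene's mean over the 4 arrays at 0 h on the x axis; open circles are 0 h, triangles 10 h, squares 15 h, red beside HPAEC and blue beside H838. In each gene the 4 filled symbols lie on one side of the 4 open ones, as the rule required, and for LINC00472 and MT1X the 10 h arrays lie well beyond those of 15 h.

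Chaperones of the cytosolic heat shock response were higher. HSPA1A, an inducible HSP70, was at 10.78 and 11.07 beside HPAEC and 11.04 and 11.06 beside H838 at 0 h and rose to 11.65 and 11.63 and to 12.04 and 11.90 at 10 and 15 h (0.82 ± 0.08, 1.76-fold, adjusted p = 0.00711). HSPA1B, whose transcript is nearly identical so that the probes may not tell the copies apart, rose by 0.87 ± 0.11. HSPH1, an HSP110 exchange factor of HSP70, rose by 0.71 ± 0.09 from 11.30 to 11.50 at 0 h to 12.03 to 12.22.

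The HSP70 partner DNAJA1 rose by 0.54 ± 0.08, the constitutive HSP70 gene HSPA8 by 0.53 ± 0.09, the co-chaperone DNAJB1 by 0.45 ± 0.11 and HMOX1, a haem-degrading enzyme of oxidative stress, by 0.51 ± 0.12. Of 18 heat shock genes 7 were higher and 0 lower (background 4.29% higher), with all 7 above the unscratched range and a list median of 0.19. The cytosolic HSP90 genes HSP90AA1 (0.07) and HSP90AB1 (-0.01) and the mitochondrial chaperonin HSPD1 (-0.10) did not pass. CHORDC1, an HSP90 co-chaperone outside the list, rose by 0.57 ± 0.11. Without 1 of the other 6 arrays 4 to 6 members passed.

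The heat shock factor HSF1 binds inverted repeats of GAA, so stretches of the HSP70 promoters are printed with the 8-letter core (GAANNTTC or TTCNNGAA) in capitals. HSPA1A (chr6:31815418-31815542) and HSPA1B (chr6:31827613-31827737) lie on the plus strand and HSPA8 (chr11:123062137-123062226) on the minus strand.
HSPA1A: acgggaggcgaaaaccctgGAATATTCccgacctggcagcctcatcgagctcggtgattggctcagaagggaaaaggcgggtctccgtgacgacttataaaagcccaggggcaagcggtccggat
HSPA1B: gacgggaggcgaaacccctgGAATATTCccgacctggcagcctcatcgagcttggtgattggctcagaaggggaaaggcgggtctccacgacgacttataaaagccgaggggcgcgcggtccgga
HSPA8: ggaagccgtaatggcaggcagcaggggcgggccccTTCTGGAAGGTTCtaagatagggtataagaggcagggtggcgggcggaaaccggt
In HSPA8 a pair of cores overlap. The core is in 4 of the 6 matched promoters of the rising heat shock genes (66.7%) and in 8.56% of the promoters of all tested genes. HSPA1A and HSPA1B, whose printed stretches are nearly identical, count separately among the 4. The promoters of HSPH1 and DNAJB1 lack the core.

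Of 21 splicing regulators of the SR family and their kinases 8 rose. SRSF7, an SR protein that binds exonic enhancers, was at 9.49, 9.47, 9.88 and 9.70 at 0 h (the HPAEC arrays, then the H838 arrays), at 10.99 and 10.77 at 10 h and at 10.14 and 10.35 at 15 h (0.93 ± 0.18, adjusted p = 0.0224). The groups did not overlap, and in both co-cultures the 10 h array was the higher. The kinase CLK1, which phosphorylates SR proteins, rose by 0.82 ± 0.10, SRSF3 by 0.78 ± 0.11, SRSF2 by 0.63 ± 0.07, SRSF1 by 0.56 ± 0.11, SRSF10 by 0.48 ± 0.12 and TRA2B by 0.43 ± 0.10. CLK4 was not above background on the 0 h arrays and was at least 1.02-fold higher.

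None of the list was lower, and 13 did not pass (background 4.29% higher). The median was 0.26, or 0.25 with CLK4 at its bound, and it was 0.40 and 0.41 on the 10 h arrays and 0.10 and 0.06 on the 15 h arrays. At 10 h alone 10 passed (background 2.36% higher) and at 15 h 4 (background 0.501%), and whether the times differ is given below. Among those that did not pass in the pooled test were SRSF6 (0.74 ± 0.21, adjusted p = 0.0649) and the kinase CLK3 (-0.43). Leaving out 1 of the other 6 arrays gave 3 to 7 members higher.

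Of 38 ribosome assembly genes 6 rose. RCL1, needed for processing of the small-subunit ribosomal RNA, was at 5.99 to 6.91 at 0 h and 7.18 to 7.65 later (0.82 ± 0.15, adjusted p = 0.0216). The nucleolar helicase DDX21 rose by 0.55 ± 0.11, NIP7 by 0.47 ± 0.09, the RNA polymerase subunit POLR1C by 0.42 ± 0.08 and the pseudouridine synthase DKC1 by 0.33 ± 0.08. UTP20 was higher as well, though above background on 1 of 4 arrays at 0 h (fitted change 0.52 ± 0.10). Of 38 genes 6 were higher and 1, NOC2L, lower (background 4.29% and 3.65%), with a median of 0.19. The number higher was 1 to 5 without 1 of the other 6 arrays. At 10 h alone 11 were higher (background 2.36%) and at 15 h 0 (background 0.501%). The list's median was 0.31 and 0.21 beside HPAEC and 0.21 and 0.06 beside H838 at 10 and 15 h. Of 33 ribosomal protein genes 0 passed (median 0.016), and of 38 respiratory chain and ATP synthase genes 0 passed (median -0.0080).

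Transcripts of sterol synthesis were lower. INSIG1, which holds the SREBP activator in the endoplasmic reticulum and is itself an SREBP target, was at 12.40, 12.43, 12.47 and 12.52 at 0 h and at 11.10 and 11.56 beside HPAEC and 11.49 and 11.69 beside H838 at 10 and 15 h (2.00-fold lower, SE 0.11 on the log2 scale, adjusted p = 0.0094). Mevalonate kinase (MVK) fell by 0.80 ± 0.08, the methylsterol oxidase MSMO1 by 0.71 ± 0.08 by its brightest probe (its kept probes differ in sign), the decarboxylase MVD by 0.59 ± 0.11 and HMG-CoA synthase (HMGCS1) by 0.57 ± 0.09. The phosphatidate phosphatase LPIN1 (-0.55), squalene epoxidase SQLE (-0.41) and the acetyl-CoA carboxylase ACACA (-0.33) were lower too.

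Of 28 genes of cholesterol and fatty acid synthesis 8 were lower and 0 higher (background 3.65% lower), with 26 estimates below 0 and a median of -0.28. The 4 late arrays gave medians of -0.22 and -0.24 beside HPAEC and -0.10 and -0.27 beside H838. The sterol cyclase LSS (-0.03), SREBF1 (-0.00) and fatty acid synthase FASN (-0.32) did not pass. Without 1 of the other 6 arrays 5 to 8 members were lower.

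Of the hypoxia and glycolysis genes 10 of 42 fell and 1 rose. Among the 10 is STC2, which is also in the ER stress list and is given with it. PFKFB4, which makes the activator of phosphofructokinase, was at 11.59, 11.46, 11.18 and 11.16 at 0 h, at 9.70 and 9.72 at 10 h and at 10.99 and 10.48 at 15 h (-1.13 ± 0.26, adjusted p = 0.0368). The 15 h array beside HPAEC came closest to the unscratched range. The adenylate kinase AK4 fell by 0.74 ± 0.16, NDRG1 by 0.69 ± 0.09, enolase ENO2 by 0.68 ± 0.16, hexokinase HK2 by 0.62 ± 0.16, the prolyl hydroxylase EGLN1 by 0.57 ± 0.14 and the mitophagy receptor BNIP3 by 0.43 ± 0.10. The other kept probe of HK2 gave -0.20.

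DDIT4 (REDD1), an inhibitor of mTORC1, went the other way, from 9.58 to 10.13 at 0 h to 10.41 to 10.74 (0.70 ± 0.09, adjusted p = 0.0109). The background was 3.65% lower and 4.29% higher, and the list's median was -0.27, with 35 of the 42 estimates below 0. The lactate dehydrogenase LDHA (-0.03), PGK1 (-0.04) and VEGFA (-0.18) did not pass. Without 1 of the other 6 arrays 2 to 9 were lower, the 2 without HPAEC 0 h replicate 1, HPAEC 10 h or H838 0 h replicate 2.

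Part of the genes that answer ER stress and amino acid shortage fell, from a 0 h level that was higher beside HPAEC. TRIB3, a pseudokinase target of ATF4 and CHOP, was at 10.75 and 10.75 beside HPAEC and 9.99 and 10.12 beside H838 at 0 h, and at 9.69 to 9.85 on the late arrays (-0.61 ± 0.10, adjusted p = 0.0180). DDIT3 (CHOP) fell by 0.72 ± 0.11, STC2, a secreted glycoprotein, by 0.81 ± 0.11, the alanyl-tRNA synthetase AARS1 by 0.65 ± 0.11, PCK2 by 0.53 ± 0.11, the phosphatase subunit PPP1R15A by 0.50 ± 0.08 and ATF4 itself by 0.49 ± 0.11. For DDIT3, STC2 and PCK2 the groups overlapped, since 1 late HPAEC array lay above at least 1 H838 array of 0 h.

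Of 33 genes of that list 10 were lower and 1, DDIT4, higher (background 3.65% and 4.29%), and the median was -0.20. Relative to the mean of all 0 h arrays the list's median was 0.16 and 0.16 on the HPAEC arrays of 0 h and -0.14 and -0.16 on the H838 arrays. Against the 0 h array of the same co-culture and chip the fall was -0.29 beside HPAEC and -0.22 beside H838. Whether AARS1 fell more beside HPAEC did not pass (difference -0.57 ± 0.19, adjusted p = 0.754). With 1 of the other 6 arrays left out 3 to 6 members were lower, and with no co-culture term 3.

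**Figure D3:**
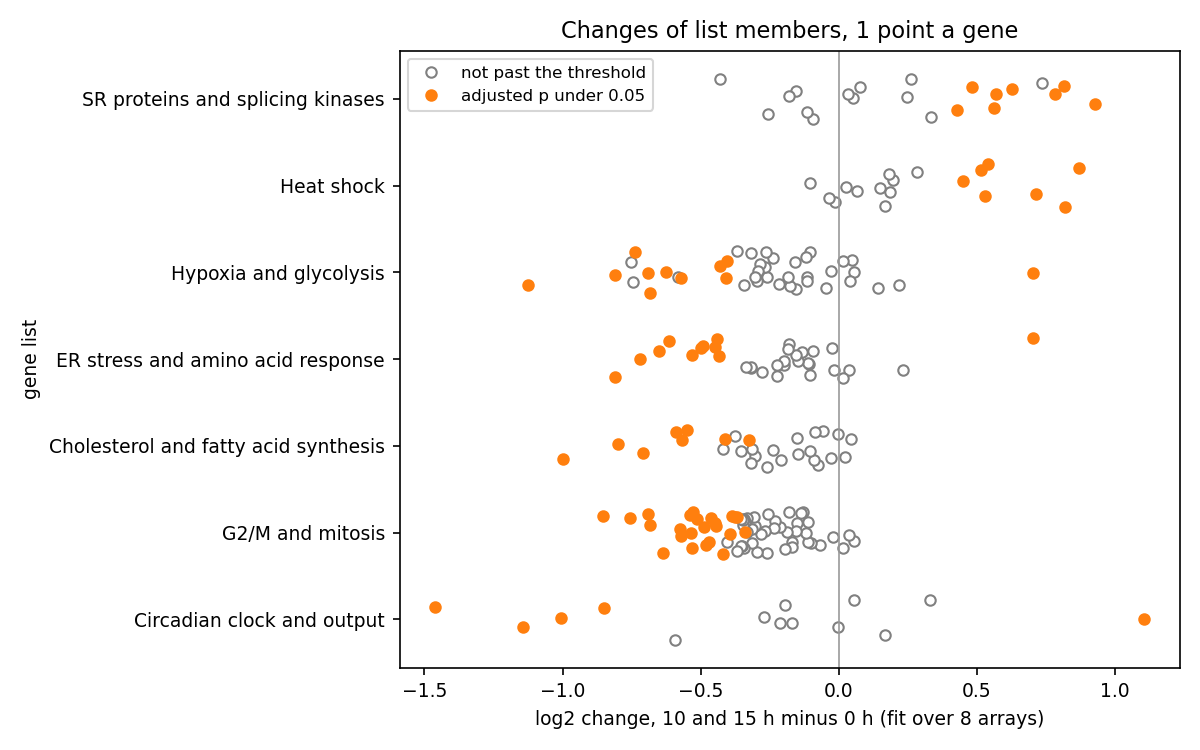
Log2 change at 10 and 15 h against 0 h (x axis) for each member of 7 gene lists (y axis, points spread vertically for display), filled orange where the adjusted p is under 0.05. Orange points lie to the left for G2/M (24 of 66) and cholesterol synthesis (8 of 28) and to the right for heat shock (7 of 18) and SR proteins (8 of 21), and DDIT4 is the lone orange point to the right in both lists that hold it.

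EGR1, an immediate early transcription factor, was below its unscratched level. It stood at 8.93 and 8.79 beside HPAEC and 9.10 and 9.19 beside H838 at 0 h and at 7.46 and 7.86 and 7.35 and 7.85 at 10 and 15 h (-1.37 ± 0.14, 2.59-fold lower, adjusted p = 0.00711). FOSB, an AP-1 subunit, was detected on all 4 unscratched arrays and on 0 late arrays and was at least 1.32-fold lower. KLF4 (-0.46 ± 0.11) and BTG1 (-0.43 ± 0.08) were lower and the MAP kinase phosphatase DUSP1 was higher (0.36 ± 0.08). Of 35 immediate early genes 1 was higher and 4 lower (background 4.29% and 3.65%), with a median of -0.04, and JUN (0.07), MYC (-0.25) and FOSL1 (-0.18) did not pass. Without 1 of the other 6 arrays 2 or 3 members were lower and 0 higher.

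Genes linked to movement and matrix breakdown gave falls only among those that passed. MMP9, a gelatinase, was at 6.91 to 7.33 at 0 h and 6.14 to 6.43 later (-0.73 ± 0.09, adjusted p = 0.0094). The collagenase MMP1 fell by 0.61 ± 0.14 and the integrin subunits ITGA3, ITGB4 and ITGA5 by 0.47, 0.45 and 0.36. ITGB4 was above background on 2 of 4 late arrays, so the size of its fall is uncertain. Of 21 genes of the migration list 5 were lower and 0 higher (median -0.12, background 3.65% lower), with 1 to 3 lower without 1 of the other 6 arrays, and the urokinase gene PLAU (0.15), its receptor PLAUR (-0.27) and CD44 (-0.02) did not pass. Among mesenchymal genes TWIST1 fell by 0.45 ± 0.11, with 2 of 14 higher and 2 lower. The tight junction gene TJP1 rose by 0.37 ± 0.08 by its brightest probe, 1 of 14 epithelial genes to pass. Its other kept probe gave 0.06, and with the mean of a gene's probes 0 of the 14 passed.

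Among the NF-kB targets the neutrophil chemokines CXCL1 (0.71 ± 0.15) and CXCL2 (0.66 ± 0.15) and the inhibitor NFKBIE (0.51 ± 0.09) rose. CXCL1 was at 8.05, 7.91, 7.34 and 7.54 at 0 h, at 8.79 and 8.52 at 10 h and at 8.30 and 8.05 at 15 h, with the lowest late array only just above the unscratched range. TNIP1 (-0.52 ± 0.11) and the mitochondrial superoxide dismutase SOD2 (-0.37 ± 0.08) fell, so that 3 of 16 were higher and 2 lower (background 4.29% and 3.65%). Without HPAEC 0 h replicate 1 or the HPAEC array of 10 h 0 of the 16 passed. CXCR1, the receptor of CXCL8, was lower (fitted change -0.93 ± 0.12, adjusted p = 0.0109), but it was above background on 1 of 4 late arrays, so the size is uncertain.

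The series is titled after TNF and SDF-1, and the genes of that axis did not pass. TNF itself, CXCR4 and ACKR3 (the receptors of SDF-1) were detected on 0 of the 8 arrays. CXCL12, which encodes SDF-1, was detected on 4 by 1 of its 3 probes, with values of 5.44 to 6.23 and a change of -0.15 ± 0.17. The TNF receptor TNFRSF1A was at 8.77 to 8.89 at 0 h and at 8.70 to 9.28 later (0.17 ± 0.11, adjusted p = 0.339), TNFRSF1B gave -0.35 ± 0.15 (adjusted p = 0.166), and the adaptor TRADD -0.15 ± 0.10 (adjusted p = 0.349). The sheddase ADAM17 (0.01 ± 0.08), the SDF-1-cleaving protease DPP4 (0.25 ± 0.15) and MIF, a CXCR4 ligand (-0.25 ± 0.09), did not pass either, 0 of 7 tested.

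Some large changes lay outside these lists. LINC00472, a long non-coding RNA, was at 6.88 to 7.08 at 0 h, at 8.80 and 8.71 at 10 h and at 7.73 and 7.89 at 15 h (1.27 ± 0.24, 2.41-fold, adjusted p = 0.0217). MT1X, a zinc-binding metallothionein whose probe may also read close paralogs, was at 9.69 to 9.87, then 11.27 and 11.39, then 10.50 and 10.53 (1.14 ± 0.21, 2.21-fold, adjusted p = 0.0213). Both stood highest at 10 h in each co-culture. Of the other metallothioneins tested MT1E (0.35) and MT2A (-0.26) did not pass.

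CYP4V2, a fatty acid hydroxylase, rose by 0.94 ± 0.08 and NAPEPLD, which makes N-acylethanolamines, by 0.90 ± 0.09. EPM2AIP1 (1.01 ± 0.13), ZCCHC12 (0.93 ± 0.11), the pseudogene TPTE2P3 (0.83 ± 0.13), RCBTB2 (0.80 ± 0.13) and SLC35G1 (0.79 ± 0.11) completed the rises named by rule. Among the falls were KISS1R, the kisspeptin receptor (2.00-fold lower, SE 0.18 on the log2 scale), MXD3, a MAX-binding repressor (-0.99 ± 0.11), ABTB1 (-0.94 ± 0.17), the cadherin CDH15 (-0.93 ± 0.09) and AKNA (-0.92 ± 0.11). SCARNA20, a small Cajal body RNA, was detected on all arrays at 0 h and on 0 later, at least 1.52-fold lower. The thioredoxin inhibitor TXNIP (-0.68 ± 0.08), the cell cycle inhibitor CDKN1C (-0.84 ± 0.13) and the PI3K inhibitor PIK3IP1 (-0.67 ± 0.09) fell in the list of quiescence genes, where FOXO1 rose by 0.38 ± 0.09.

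Further lists held few calls (background 4.29% higher and 3.65% lower). Without HPAEC 0 h replicate 1 there were 0 calls among the p53, TGF-beta, lysosome, contractile, histone, glucocorticoid, fibroblast, mesenchymal and epithelial lists, and 1 of the interferon-stimulated genes was lower. Of 23 p53 targets 2 were higher, XPC (0.41) and TP53I3 (0.33), and SESN2, also counted in the ER stress list, was lower (-0.45). SESN2 was above background on 2 of 4 late arrays, so the size of its fall is uncertain. Of 18 TGF-beta targets THBS1 rose by 0.52 and TGFBI fell by 0.36, and of 16 YAP targets ANKRD1 rose by 0.68 and NT5E fell by 0.63. Of 20 interferon-stimulated genes 3 fell, ISG20 (-0.68), ISG15 (-0.41) and UBE2L6 (-0.36). Lower as well were the lysosomal genes NPC1 (-0.42) and WIPI1 (-0.33) of 35, the contractile genes CNN1 (-0.42) and TAGLN2 (-0.45) of 20, and CD68 (-0.60), 1 of 3 leukocyte genes tested. The other kept probes of CD68 gave -0.19 and -0.30. The matrix genes POSTN (0.49, but 0.15 by its other kept probe) and COL3A1 (0.30) were higher. Among histones H2BC21 rose by 0.44 and H1-10 fell by 0.49. Of 9 glucocorticoid-responsive genes TSC22D3 fell by 0.46 and DUSP1 rose by 0.36, with a list median of 0.02. The TSC22D3 call passed in 11 of 26 settings, as did those of COL3A1, WIPI1, HK2 and SRSF10. The calls of E2F2 (10 of 26), KLF4 and CLK4 (10 of 25 each) and SESN2 (8 of 25) passed in fewer. Of 9 spliceosomal RNAs 0 passed, with RNU1-1 at 0.38 (adjusted p = 0.0606), and of 4 endothelial genes tested 0 passed, with EGFL7 at -0.19 and MMRN1 at 0.15.

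**Figure D4:**
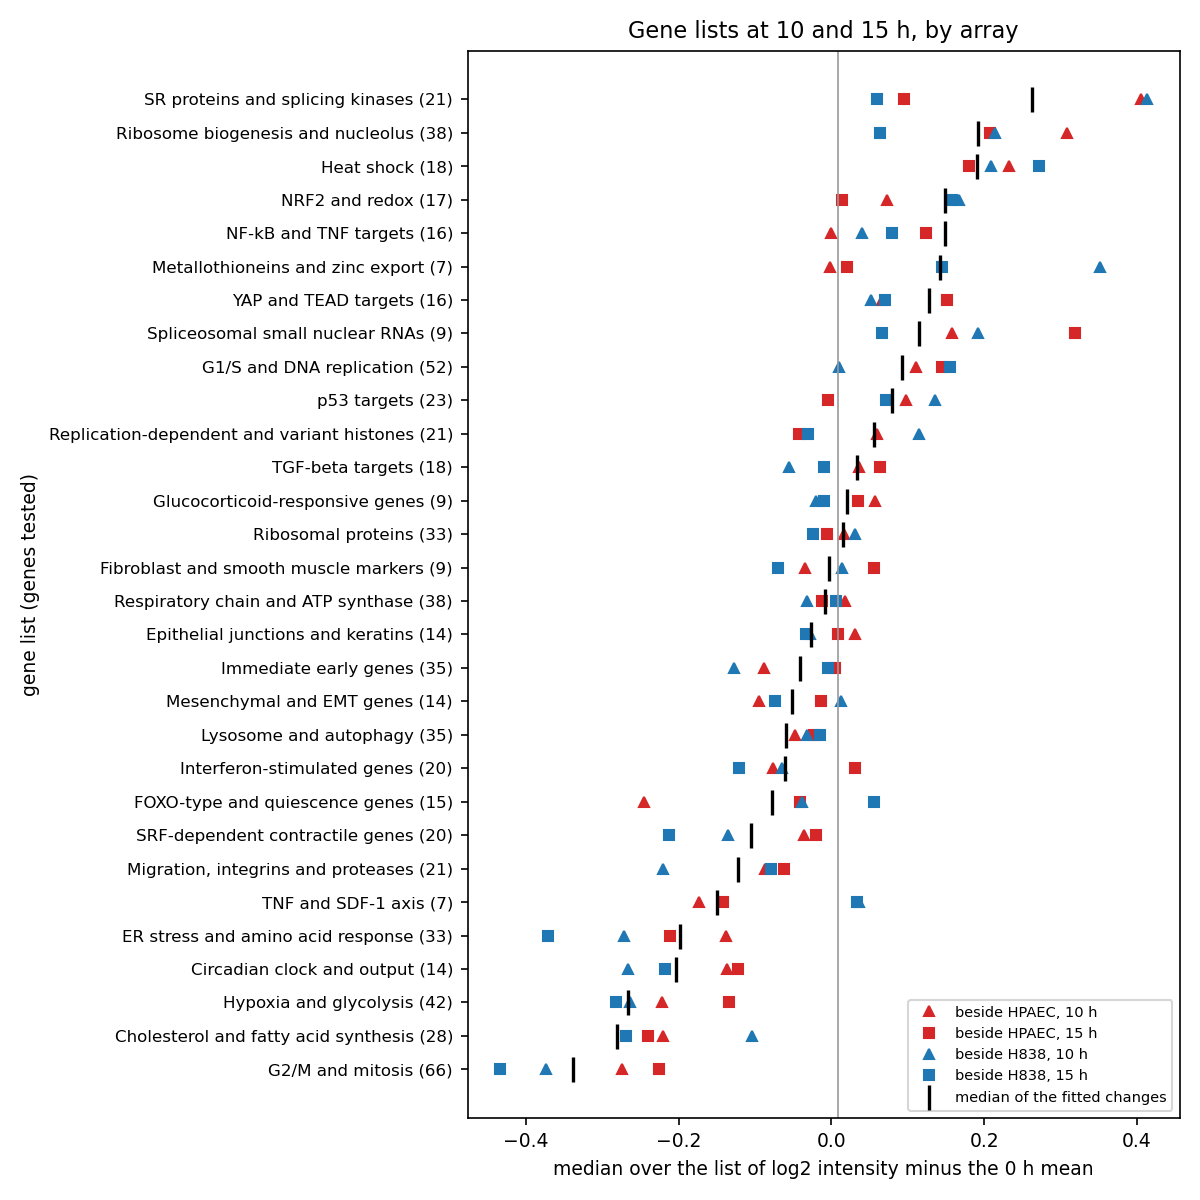
Median over each gene list (y axis, number of genes tested in brackets, lists of 5 or more) of the log2 intensity minus the 0 h mean, for each of the 4 late arrays (triangles 10 h, squares 15 h, red beside HPAEC, blue beside H838), with the median of the fitted changes as a black bar and the median of all genes as a grey line. The G2/M, cholesterol, hypoxia, circadian and ER stress lists lie left of the line on all 4 arrays, and for the SR proteins the 10 h arrays (0.40 and 0.41) lie far right of the 15 h arrays (0.10 and 0.06).

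The late times did not differ from each other by test. Between 15 and 10 h 0 of 10783 genes passed (limma; 1025 at an unadjusted p under 0.05), while the authors' normalized values gave 39 and detection on all arrays 6. The smallest p belonged to the glucose transporter SLC2A1, at 9.10 and 8.90 at 10 h and 10.26 and 9.91 at 15 h (1.08 ± 0.11, adjusted p = 0.140). MAT2A, which makes the methyl donor SAM, was at 12.64 and 12.46 and then 11.12 and 11.41 (-1.28 ± 0.15, adjusted p = 0.182), and LINC00472 gave -0.95 ± 0.12 (adjusted p = 0.190). Each rests on 2 arrays a time.

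Against 0 h taken singly, 10 h gave 485 genes (4.5%), 254 higher (2.36%) and 231 lower (2.14%), and 15 h gave 134 (1.24%), 54 higher (0.501%) and 80 lower (0.742%). Under median scaling the 10 h split turned to 230 higher and 263 lower. The 15 h count was 215 under median scaling and 1108 with the authors' normalized values, where 54.3% were higher instead of 40.3%. At 10 h MAT2A was higher by 1.71, SRSF6 by 1.14 and the pseudogene GUSBP5 by 1.21, and SLC2A1 fell by 1.29. At 15 h the transmembrane gene TMEM119 (1.11) and the crystallin gene CRYBA1 (1.07) were higher and the aldolase ALDOC lower (-1.14). ANKRD35 was also lower, but it was not above background on either 15 h array. The 2 contrasts share all 0 h arrays.

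The 6 arrays from 3 to 5 h were also set against those of 10 and 15 h. A difference there can be a late departure from the 0 h level or a return to it. In this contrast chip and co-culture coincide and cannot be told apart. Between 3 to 5 h and 10 to 15 h 251 genes differed (2.33%), 148 higher (1.37%) and 103 lower (0.955%), and under median scaling 266 with 45.9% higher instead of 59.0%. The count was 20 without the H838 array of 15 h and 43 without the HPAEC array of 15 h. It was 116 without HPAEC 10 h, 118 without H838 4 h, 121 without HPAEC 3 h, 132 without H838 3 h and 154 without HPAEC 4 h.

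ANKRD37, which hypoxia-inducible factor switches on, was low from 3 to 5 h and high later. It was at 7.53 to 8.34 at 0 h, at 5.22 to 5.98 from 3 to 5 h, where it was detected on 1 of 6 arrays, and at 7.73 to 8.45 later (fitted change 2.40 ± 0.11 against 3 to 5 h, adjusted p = 6.75e-07, of uncertain size since most arrays of 3 to 5 h were not above background). Against 0 h the late arrays differed by 0.14 ± 0.10, which did not pass (adjusted p = 0.384). DDIT4 moved from 8.78 to 9.54 at 3 to 5 h up to 10.41 to 10.74 (1.46 ± 0.14), above its 0 h range.

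CCNG2, an atypical cyclin, stepped up by 0.87 ± 0.14, the mismatch repair gene PMS1 by 0.93 ± 0.12 and CHORDC1 by 0.90 ± 0.12. Against 0 h the late change was -0.39 for CCNG2 (-0.002 by its other kept probe), 0.32 for PMS1 and 0.57 for CHORDC1. BMAL1, detected on 2 of the 6 arrays from 3 to 5 h, gave a fitted change of 0.91 ± 0.21, just past the threshold. That call passed in 3 of 12 settings, with adjusted p up to 0.158. FOSB was at 6.56 to 8.82 from 3 to 5 h and at least 3.12-fold lower at 10 and 15 h. The FOSB call passed in 5 of 12 settings. The small GTPase gene RAB7B fell by 1.21 ± 0.23, the zinc exporter SLC30A1 by 1.04 ± 0.17, ETV5 by 1.01 ± 0.11, the EGR1 repressor NAB2 by 0.95 ± 0.20 and the Notch glycosyltransferase LFNG by 0.93 ± 0.11. The NAB2 call passed in 7 of 13 settings and the RAB7B call in 9 of 12. SLC30A1, ETV5, NAB2 and LFNG differed from 0 h by -0.10 to 0.13 on the pooled late arrays, and none of these 4 passed there.

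By list, 9 of 28 cholesterol and fatty acid genes were lower at 10 and 15 h than at 3 to 5 h and 0 higher (median -0.34, background 0.955% lower), HMGCS1 by 0.67 ± 0.08 among them. Of 52 G1/S genes 10 were higher and 0 lower (median 0.18, background 1.37% higher), and of 42 hypoxia genes 5 were higher and 1 lower (median -0.01). Of 66 G2/M genes 2 were lower than at 3 to 5 h, with CDC25C at -0.36 ± 0.08, and of the heat shock genes 4 of 18 were higher than at 3 to 5 h. Of the 857 genes that differed from 0 h, 87 also passed in this contrast with the same sign. Both contrasts share the 4 late arrays.

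**Figure D5:**
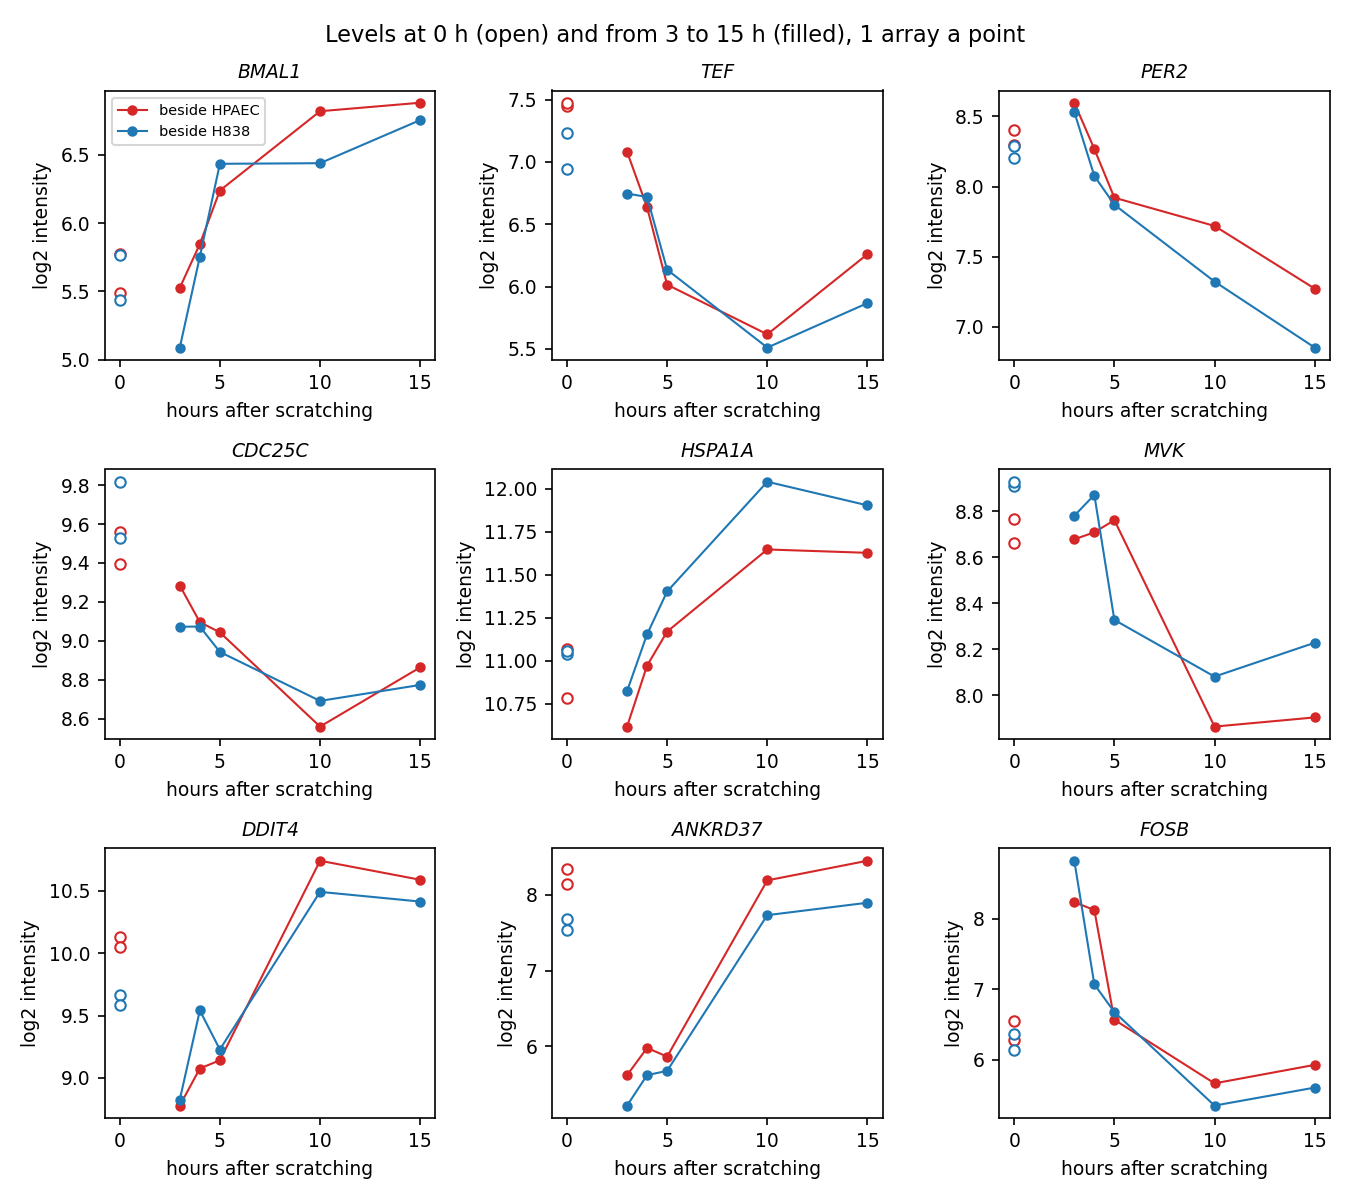
Log2 intensity (y axis) of 9 genes against hours after scratching (x axis), with open circles for the 0 h replicates and filled circles joined by lines for 3, 4, 5, 10 and 15 h, red beside HPAEC and blue beside H838, 1 array a point. ANKRD37 and DDIT4 are lowest from 3 to 5 h and high at 10 and 15 h, FOSB falls from 3 to 15 h overall and ends below 0 h, and BMAL1 and HSPA1A rise while TEF, PER2, CDC25C and MVK end below 0 h.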

How the data were processed

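RNA of the H838 cells was measured on 24 Illumina HT-12 arrays of 2 BeadChips. The authors' non-normalized table holds, per the file headers, a linear mean bead intensity and a detection p-value per probe and array. Another deposited matrix holds intensity values normalized by the authors (column medians 116.46 to 116.55, linear scale, no centring of genes). The sources used here name neither software nor genome build. Of 47286 probes 30080 had 1 gene symbol in the supplied annotation, 8 several and 17198 none.

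Background came off by limma's normal-exponential model, which uses the detection p-values (offset 16). Log2 was then taken, and quantile normalization of the log2 values spanned the 20 arrays of 0 to 15 h. Kept probes had a detection p under 0.01 on at least 2 of the 8 arrays, and the kept probe of highest mean stood for its gene. Tests used limma 3.58.1 (R 4.3.3) with co-culture and chip as fixed terms, both sides, Benjamini-Hochberg over 10783 genes, and 4 residual degrees of freedom (3 with separate times or the interaction, 7 against 3 to 5 h with co-culture as the only covariate). Errors printed with ± are SEs unless stated. The fit was tested on simulated data. Arrays have no depth, so their number limits the precision. The labels' description gives the chip: the late HPAEC arrays are on chip 1, the late H838 arrays on chip 2, and the 0 h replicates on both.

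The comparison, the 32 gene lists and the rules were chosen with earlier results of these data known. Named were the 15 largest rises and 15 largest falls past the threshold whose groups do not overlap and that are detected on all 4 arrays of the higher group, up to 8 members per list and direction past the threshold (or the 2 smallest p-values), all TNF and SDF-1 axis genes, and for other contrasts the 6 largest per direction (or the 3 smallest p-values). List members named as not passing, FASN and MKI67 for example, the promoters printed and the genes drawn over time were chosen after their values were seen. Alternatives changed the background, scaling, filter, probe choice, chip and co-culture terms, the prior and each replicate.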

Additional observations from a re-analysis of the deposited data

Results flagged for a closer look

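In 5 of the 106 groups of 4 arrays examined, 1 array lay far from the other 3 by Dixon's criterion, which chance alone meets in about 1 in 20 groups. HSPA1A was at 10.78 on the HPAEC 0 h replicate 1 array against 11.04 to 11.07 on the others of 0 h. CYP4V2 was at 8.17 on the H838 0 h replicate 2 array against 8.32 to 8.35. CHORDC1 was at 9.01 on the H838 0 h replicate 1 array against 8.56 to 8.62. Among the late arrays EPM2AIP1 was at 8.11 beside HPAEC at 15 h against 8.52 to 8.56, and PER3 was at 8.51 beside HPAEC at 10 h against 7.90 to 7.96.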

How the results depend on the processing

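The count of 857 genes became 1506 with no background correction, 1538 with the authors' normalized values, 249 with no filter on detection, 1438 with 20 arrays in the fit and 1649 with a trended robust prior. On chip 1 alone and on chip 2 alone it was 0 (1941 and 691 at an unadjusted p under 0.05), and with 1 array left out it lay between 0 and 655. It stayed within 1.5 times under the other 11 settings that kept all arrays. The count for 10 h against 0 h was 1409 and for 15 h 1108 with the authors' values, and 1104 and 684 with detection on all arrays; median scaling gave 215 at 15 h. Between 15 and 10 h these values gave 39 and 6 in place of 0. Against 3 to 5 h they gave 599 and 421, and 20 to 320 with 1 array left out. Detection on all arrays tests fewer genes; other causes were not tested.

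Under median scaling the list medians were 0.062 (YAP), -0.030 (glucocorticoid), -0.078 (epithelial), -0.059 (ribosomal proteins), -0.069 (respiratory chain) and -0.080 (lysosome), and with the authors' values 0.066 for NF-kB. With 1 array left out the medians ranged from -0.016 to 0.14 for TGF-beta, -0.19 to 0.0089 for the TNF and SDF-1 axis, -0.064 to -0.0029 for lysosome, -0.046 to 0.078 for histones, -0.090 to 0.0074 for interferon-stimulated genes, -0.0066 to 0.17 for spliceosomal RNAs, -0.048 to 0.062 for glucocorticoid-responsive genes, -0.058 to -0.0047 for epithelial genes, 0.075 to 0.17 for NRF2, 0.048 to 0.16 for G1/S, 0.18 to 0.26 for heat shock, -0.29 to -0.18 for cholesterol, 0.079 to 0.17 for YAP and 0.050 to 0.20 for NF-kB.

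Of single genes, ADAM17 turned to -0.075 as a mean of its probes and to -0.039 on chip 2 alone, and with 1 array left out ranged from -0.0091 (without HPAEC 10 h) to 0.038. On chip 2 alone DPP4 gave -0.076, TNFRSF1B 0.17 and TRADD 0.037. With 1 array left out CXCL12 ranged from -0.41 to 0.039, the highest without HPAEC 0 h replicate 1. None of these had passed. No paired analysis was possible because the 10 and 15 h arrays carry no replicate number, and at 0 h the number coincides with the chip.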
